A study of Mus musculus with 17 samples.

Results

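The effect of a short hairpin against Arid3a was examined in mouse fetal liver cells after 10 days of induction. The comparison holds 5 of the 17 libraries of the series. These are 2 libraries labelled shArid3a, with replicate numbers 1 and 3, and 3 labelled sh-ctrl, a control hairpin, with replicate numbers 1 to 3. They were taken by their labels and matching column names, and no measured value entered that choice. All 47069 genes of the count table were considered, and 14004 passed the filter on low counts and were tested.

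The embryos were at day E12.5 to 13.5. Their strain, on a B6J.129(Cg) background, is a knock-in at the ROSA26 locus in which a CAG promoter drives Cas9 and EGFP (the Fezh/J line). Both groups carried the same first transgene, sgGata1, a guide RNA against Gata1. Such cells are named Gata1s, after a short GATA1 protein, a transcription factor that lacks the N-terminal activation domain. Both groups also received doxycycline at 1 µg/mL for 10 days, so the second transgene, sh-ctrl or shArid3a, was the labelled difference. Another group of the same table, miR-125b (3 libraries, same strain, guide and doxycycline), entered the fit for its estimate of spread and a direct contrast given near the end. The labels name no separate animals or cultures, so p-values measure the spread between libraries, which may be technical. Replicate number 2 of shArid3a was not analysed here.

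ARID3A is a DNA-binding protein of the AT-rich interaction domain family, also known as Bright, that binds AT-rich DNA and the E2F1 protein. It is known for its role in B lymphocytes and in the fetal liver, where mouse embryos without it fail in blood formation. GATA1s is the form of GATA1 found in the megakaryocytic leukaemia of children with Down syndrome.

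RNA was counted as reads per gene, and the 8 libraries of the table held 31992089 to 40859301 counts. Levels are given below as CPM (a gene's counts relative to the library's total), adjusted by the TMM method of edgeR, which corrects for differences in composition between libraries. Markers of the megakaryocyte were abundant, with a summed level over 7 genes of 3140 to 4770 CPM in sh-ctrl and 3320 to 3540 CPM in shArid3a. Of the 7 erythroid markers, the membrane transporter Slc4a1 had 0 counts in all 5 libraries, and the sum ran from 309 to 554 CPM in sh-ctrl and from 314 to 349 CPM in shArid3a. The 4 progenitor markers summed to 318 to 488 CPM in sh-ctrl and 403 to 418 CPM in shArid3a, with Cd34 at no more than 0.366 CPM in any of the 5. Mast cell and basophil markers varied within both groups, at 4.95 to 35.8 CPM in sh-ctrl and 7.72 to 44.4 CPM in shArid3a. Hepatocyte markers, 4 of 10 at 0 counts in all 5 libraries, summed to at most 1.27 CPM in sh-ctrl and 3.57 CPM in shArid3a. Macrophage, neutrophil and B cell markers summed to at most 1.33 CPM per type in any of the 5 libraries. T and NK cell markers, 4 of 6 at 0 counts, summed to 0.932 to 1.08 CPM in sh-ctrl and 2.45 to 2.95 CPM in shArid3a, without overlap and nearly all from Cd3g, and their part in other results was not tested. The endothelial sum of 133 to 148 CPM was nearly all Pecam1, which platelets also carry, with Cdh5, Lyve1 and Emcn at 0 counts. Stromal markers, 4 of 8 at 0 counts, summed to 30.9 to 63.1 CPM in sh-ctrl and 22.4 to 27.8 CPM in shArid3a, most of it Pdgfrb. In these bulk samples, fewer cells of a type and less RNA per cell cannot be told apart.

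A list named here ribosomal RNA-like was higher with the hairpin, and 1 sequence of it is shown because it carried the second lowest p-value of the comparison. The annotation (GENCODE M21, GRCm38) lists Gm23935 at chr16:11144125-11144181, plus strand, and Gm24270 at chr9:56223715-56223771, minus strand, each as a microRNA gene of 57 nt. Both genes have an identical annotated sequence, so reads that lie wholly within it cannot be told apart by sequence. Their counted levels differed, at 1171 and 1225 CPM for Gm23935 and 18.4 and 21.7 CPM for Gm24270 in shArid3a. How reads were assigned to each was not tested.
Gm23935 and Gm24270: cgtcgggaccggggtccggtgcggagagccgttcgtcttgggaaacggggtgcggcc

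The other sequences shown are promoters (RefSeq, GRCm38.p6, 250 bases before to 50 after a start) of the replication gene Cdt1, the mitotic gene Ube2c and the interferon-inducible gene Rsad2. Each is the member of its list with the smallest p-value that held the list's first motif and had a single promoter entry. They are shown because the members of these lists had values of mostly 1 sign, as given below. Capitals mark matches on either strand to TTTNGCGC (an E2F-type motif) and CCAAT in Cdt1, to TTTGAA (a CHR-type motif of mitotic genes) and CCAAT in Ube2c, and, in Rsad2, to an interferon-response-type motif of 2 copies of GAAA spaced by 2 bases of any kind. The windows are chr8:122567765-122568064 on the plus strand, chr2:164769679-164769978 on the plus strand and chr12:26456403-26456702 on the minus strand. The Cdt1 window held 1 TTTNGCGC and 0 CCAAT, and that of Ube2c held 1 TTTGAA and 6 CCAAT, of which 2 overlap on opposite strands.
Cdt1: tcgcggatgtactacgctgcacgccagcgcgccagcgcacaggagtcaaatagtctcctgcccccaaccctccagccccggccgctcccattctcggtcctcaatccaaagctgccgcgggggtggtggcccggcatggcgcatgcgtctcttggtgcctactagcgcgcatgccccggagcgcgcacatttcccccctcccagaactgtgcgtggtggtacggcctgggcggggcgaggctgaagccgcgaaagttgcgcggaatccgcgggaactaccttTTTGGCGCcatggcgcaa
Ube2c: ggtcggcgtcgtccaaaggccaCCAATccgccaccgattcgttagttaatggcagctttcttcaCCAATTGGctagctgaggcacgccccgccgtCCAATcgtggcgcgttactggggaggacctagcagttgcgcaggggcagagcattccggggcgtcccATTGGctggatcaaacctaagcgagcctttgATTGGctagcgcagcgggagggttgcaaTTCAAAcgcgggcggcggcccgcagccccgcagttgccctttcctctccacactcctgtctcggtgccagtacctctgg
Rsad2: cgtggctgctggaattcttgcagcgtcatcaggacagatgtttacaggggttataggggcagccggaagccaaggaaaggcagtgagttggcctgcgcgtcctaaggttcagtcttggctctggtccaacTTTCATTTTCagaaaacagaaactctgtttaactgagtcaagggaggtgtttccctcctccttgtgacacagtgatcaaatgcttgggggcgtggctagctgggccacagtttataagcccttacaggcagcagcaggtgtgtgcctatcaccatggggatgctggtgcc

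The hairpin's target is the first check of the labels. Arid3a (ENSMUSG00000019564, chromosome 10, 79927043 to 79955018, plus strand, overlapped by no other annotated gene) stood at 45.2, 56.3 and 57.2 CPM in the sh-ctrl libraries and at 20.4 and 18.9 CPM in the shArid3a libraries. Every shArid3a library lay below every sh-ctrl library. Arid3a fell by 1.43 on the log2 scale (SE 0.19), from a mean of 52.9 ± 6.7 CPM (SD, n = 3) to 19.7 ± 1.03 CPM (SD, n = 2), with an edgeR adjusted p of 0.0232. The call rested on several libraries. With edgeR it was lost without sh-ctrl replicate 2 (adjusted p 0.0586), sh-ctrl replicate 3 (0.124), shArid3a replicate 1 (0.0655), shArid3a replicate 3 (0.366) or miR-125b replicate 2 (0.0533), with log2 fold changes of −1.48 to −1.37 in those fits. Gata1 (chromosome X, 7959260 to 7978071, minus strand), the gene the guide is directed to in both groups, stood at 316, 442 and 534 CPM in sh-ctrl and at 318 and 421 CPM in shArid3a. The groups overlapped, and the log2 fold change of −0.22 (SE 0.26) had an edgeR adjusted p of 0.598.

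**Figure D1:**
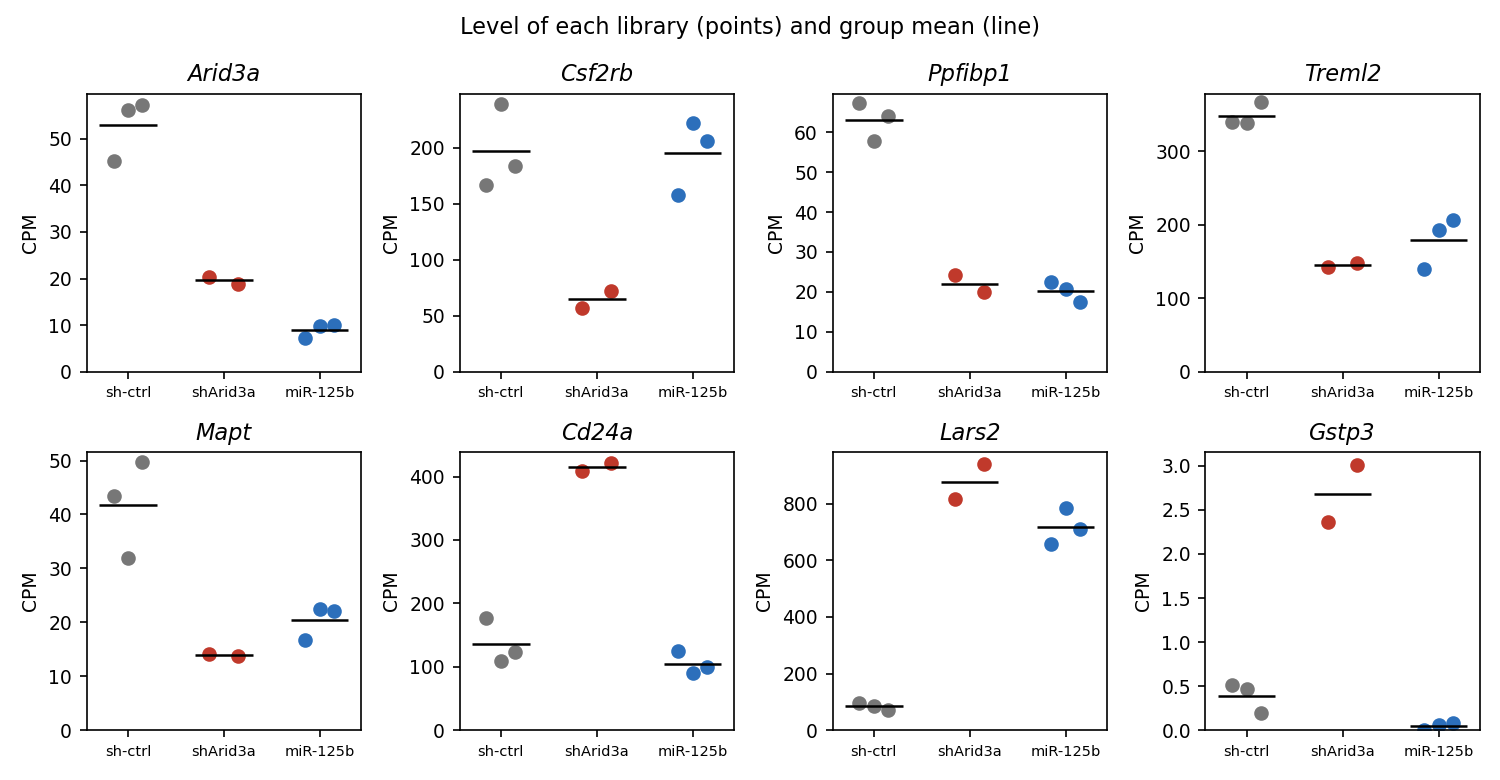
Levels in CPM of 8 called genes, with 1 point per library and a line at each group mean, for sh-ctrl, shArid3a and miR-125b. Arid3a was at 45.2 to 57.2 CPM in sh-ctrl and at 18.9 and 20.4 CPM with the hairpin. The miR-125b points of Csf2rb, Cd24a and Gstp3 lie apart from those of the hairpin, while those of Ppfibp1 lie close to them.

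Few genes passed the test besides Arid3a. The edgeR fit called 13 genes at an adjusted p under 0.05, which is 0.0928% of the genes tested, with 8 higher (0.0571%) and 5 lower (0.0357%). At an unadjusted p under 0.05 there were 3849 genes (27.5%), with 1892 higher (13.5%) and 1957 lower (14%). In 6141 genes (43.9%) the shArid3a libraries did not overlap the sh-ctrl libraries, with 3029 higher (21.6%) and 3112 lower (22.2%). The replicate numbers were taken to pair the libraries, which the labels do not state. A fit with the number as a block called 31 genes (0.221%), 10 higher (0.0714%) and 21 lower (0.15%), including all 13. DESeq2 called 1600 of 11263 genes (14.2%), 744 higher (6.61%) and 856 lower (7.6%), including 12 of the 13. The count also moved with single libraries. Without miR-125b replicate 1, edgeR called 517 of 13925 genes (3.71%), 171 higher (1.23%) and 346 lower (2.48%). It called 2 genes without sh-ctrl replicate 3, 2 without shArid3a replicate 3 and 6 without shArid3a replicate 1.

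**Figure D2:**
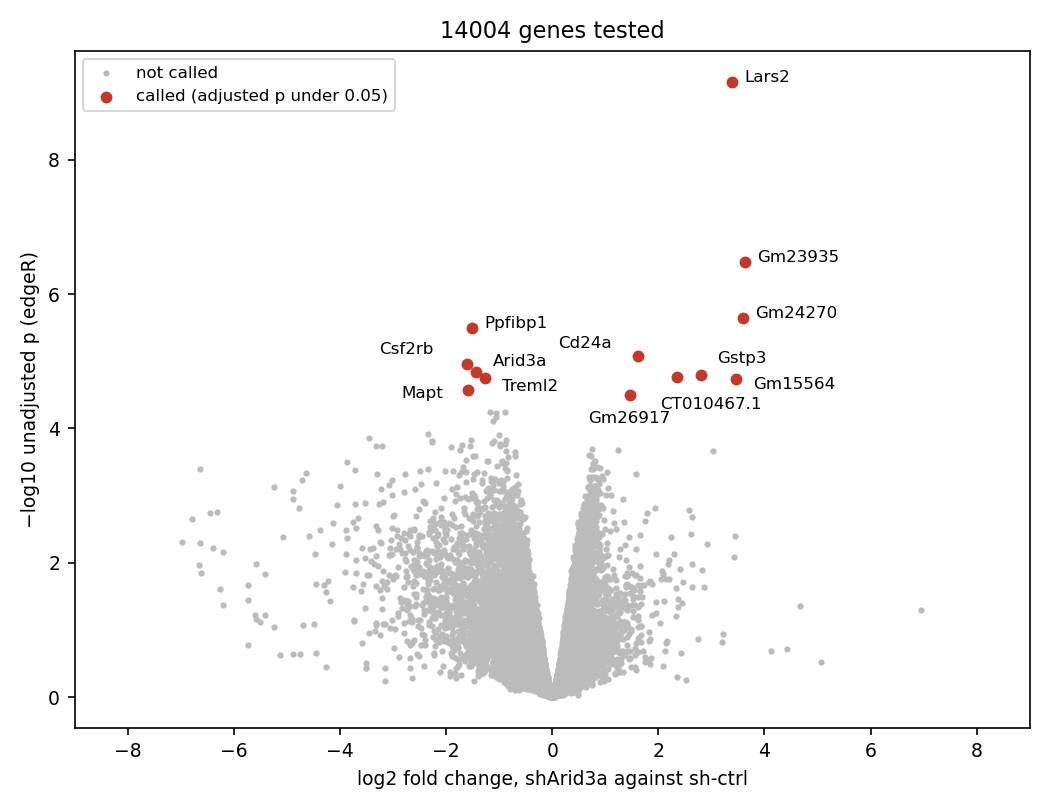
Log2 fold change of shArid3a against sh-ctrl (horizontal) and −log10 of the unadjusted edgeR p-value (vertical) for the 14004 genes tested. The 13 called genes include 6 ribosomal RNA-like genes on the right, with Lars2 highest at a log2 fold change of 3.39.

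Among the called surface receptors, Csf2rb and Treml2 fell and the surface glycoprotein Cd24a rose. Csf2rb, the beta chain shared by the receptors for GM-CSF, IL-3 and IL-5 (chromosome 15, 78325752 to 78353847, plus strand), stood at 167, 239 and 184 CPM in sh-ctrl and at 56.8 and 72.4 CPM in shArid3a. It fell by 1.61 on the log2 scale (SE 0.21, edgeR adjusted p 0.0232), and the groups did not overlap. Its close neighbour and paralog Csf2rb2 (chromosome 15, 78282507 to 78305721, minus strand), a beta chain of the mouse IL-3 receptor, stood at 39.5, 53.7 and 41.2 CPM against 14.7 and 24.9 CPM. That difference of −1.18 had an edgeR adjusted p of 0.0802, and counting could have split reads between both copies. Each also overlaps 1 annotated gene on its own strand. The sum of both genes, which does not depend on that split, was 206.3, 293 and 225 CPM in sh-ctrl and 71.6 and 97.4 CPM in shArid3a, again with no overlap. Cd24a, a lipid-anchored glycoprotein of immature blood cells (chromosome 10, 43578284 to 43584265, plus strand), stood at 177, 109 and 123 CPM in sh-ctrl and at 409 and 422 CPM in shArid3a. Cd24a rose by 1.61 on the log2 scale (SE 0.21, edgeR adjusted p 0.0232), and the highest sh-ctrl library stayed far below both hairpin libraries. Treml2, a receptor of the TREM-like family (chromosome 17, 48299498 to 48312533, plus strand), stood at 340.1, 338 and 367 CPM in sh-ctrl and at 143 and 148 CPM in shArid3a. Treml2 fell by 1.26 (SE 0.18, edgeR adjusted p 0.0232), and the libraries within each group lay close together.

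Of the other called protein-coding genes, Ppfibp1 and Mapt code for proteins of cell contacts and the cytoskeleton. Ppfibp1, which codes for the scaffold protein liprin-beta-1 (chromosome 6, 146888487 to 147032025, plus strand), stood at 67.2, 57.8 and 64.1 CPM in sh-ctrl and at 24.1 and 20 CPM in shArid3a, and fell by 1.51 (SE 0.17, edgeR adjusted p 0.0112). Mapt, which codes for the microtubule-binding protein tau (chromosome 11, 104231390 to 104332090, plus strand), stood at 43.4, 31.9 and 49.8 CPM against 14.1 and 13.7 CPM, and fell by 1.59 (SE 0.23, edgeR adjusted p 0.0308). In both genes the hairpin libraries lay below all sh-ctrl libraries. Ppfibp1 overlaps 1 annotated gene on its own strand and 2 on the other, and Mapt 3 on the other strand, and the use of strand in counting is not given in the sources used here. Gstp3, a glutathione S-transferase of the pi class (chromosome 19, 4057477 to 4059569, minus strand), was low, at 0.508, 0.469 and 0.195 CPM in sh-ctrl and at 2.37 and 3.01 CPM in shArid3a. These levels rest on 18, 16 and 8 against 87 and 102 counts. Gstp3 rose by 2.80 (SE 0.43, edgeR adjusted p 0.0232), and DESeq2 gave it no adjusted p. With the trend with gene length described below removed, Csf2rb (adjusted p 0.0642), Mapt (0.0642), Gstp3 (0.0642) and Ppfibp1 (0.0777) lost their edgeR call. Arid3a, Cd24a and Treml2 stayed called, each at an adjusted p of 0.0391. Of the ribosomal RNA-like genes described next, Gm15564 (0.0754) and Gm26917 (0.0592) lost their call in that fit and 4 of 6 stayed called.

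The remaining 6 called genes form the ribosomal RNA-like list, of which 6 of 8 genes were tested and all 6 rose. The list was written with earlier results of these data known, so the call of all 6 is no finding about a class. Its name is a label, since only CT010467.1 is annotated as ribosomal RNA. Lars2, annotated as the mitochondrial leucyl-tRNA synthetase (chromosome 9, 123366927 to 123462666, plus strand), stood at 96.9, 84.3 and 70.2 CPM in sh-ctrl and at 815 and 939 CPM in shArid3a. It rose by 3.39 on the log2 scale (SE 0.17, edgeR adjusted p 9.58e-06). Its annotated transcripts share 28 words of 25 nt on the same strand with Gm15564, an antisense gene on chromosome 16 that rose by 3.47 (edgeR adjusted p 0.0232). Gm23935 stood at 156, 76.1 and 59.5 CPM in sh-ctrl and at 1171 and 1225 CPM in shArid3a, a rise of 3.63 (SE 0.33, edgeR adjusted p 0.00232), and the identical Gm24270 rose by 3.59 (0.0105). On chromosome 17, CT010467.1, annotated as ribosomal RNA, rose by 2.35 (0.0232), and Gm26917, which ends just before it, by 1.47 (0.0348). Lars2, Gm15564, Gm23935, Gm24270 and Gm26917 share 0 words of 25 nt with CT010467.1 on either strand. Gm42418 and AY036118, which lie within CT010467.1, had 0 counts. Together the list took 0.0388 to 0.0697% of all counts in sh-ctrl, 0.302 and 0.318% in shArid3a, and 0.237 to 0.337% in miR-125b. The share therefore separated sh-ctrl from both other groups. Its part in other results was not tested beyond a fit without these genes, in which edgeR called 7 genes, all among the 13. Lars2 and Gm23935 were called in all 19 alternatives that include them.

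Fold changes also followed gene length across the genome. Protein-coding genes were split into 10 bins by the length of their exons. In the shortest bin (204 to 1740 nt, 1156 genes) the median log2 fold change was 0.36 and 73.8% of genes were higher with the hairpin, and in the longest (9814 to 123179 nt, 1157 genes) the median was −0.42 and 18.9% were higher. Library by library, the shortest bin stood at 0.13, 0.00 and −0.14 in sh-ctrl and at 0.23 and 0.43 in shArid3a, relative to the sh-ctrl mean on the log2 scale. The longest bin stood at −0.05, −0.05 and 0.08 in sh-ctrl and at −0.24 and −0.52 in shArid3a. In both bins shArid3a replicate 3 lay farther from the sh-ctrl mean than replicate 1. The miR-125b libraries had the same trend, at 0.56, 0.36 and 0.40 in the shortest bin and −0.56, −0.30 and −0.30 in the longest. In both bins sh-ctrl thus lay apart from both other groups. The sh-ctrl libraries also spread, and in the shortest bin their values lay farther apart than those of the hairpin libraries. The median over all genes tested was −0.02, and scaling by library totals moved it to −0.22. A fit that removes each library's trend with exon length, chosen after seeing the data, is given beside each gene group below, and the part of the trend in each group's difference was not tested beyond that fit. Fold changes of protein-coding genes also followed their level. In the lowest of 10 bins by average log2 CPM the median was −0.59, with 30.7% of genes higher. In the highest it was 0.31, with 81.1% higher. With the length trend removed these medians were −0.56 and 0.30. The part of level in the list medians was not tested, and the shares of all genes given next are not matched for level. The counts of list members below stand against shares of all genes that were the same for every list. These were 13.5% higher and 14% lower at an unadjusted p under 0.05, 6.61% and 7.6% called by DESeq2, 21.6% and 22.2% without overlap, and 1.23% and 2.48% called by edgeR without miR-125b replicate 1. List members named below were mostly chosen for a small p, so a lack of overlap in them is no finding.

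**Figure D3:**
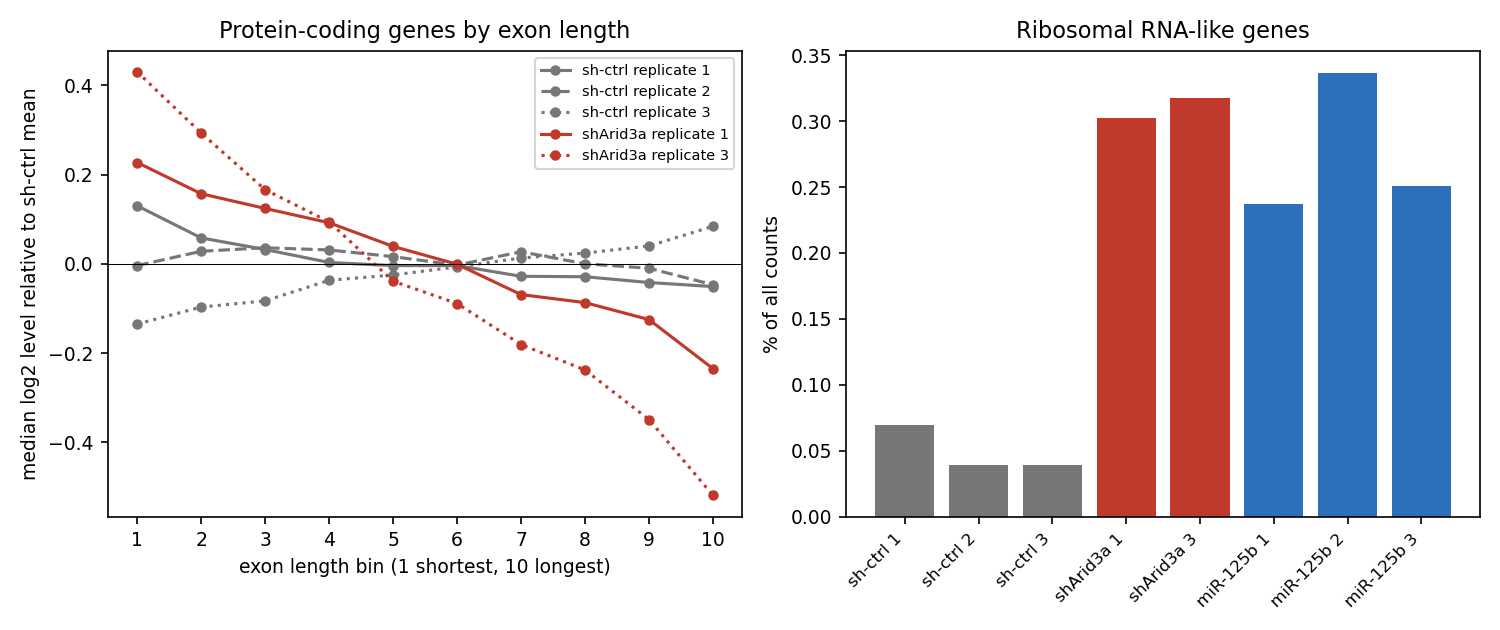
Left, median log2 level relative to the sh-ctrl mean of protein-coding genes in 10 bins of exon length, 1 line per library of sh-ctrl and shArid3a. The shArid3a lines fall from 0.23 and 0.43 in the shortest bin to −0.24 and −0.52 in the longest. Right, share of all counts in ribosomal RNA-like genes for each of the 8 libraries, at most 0.0697% in sh-ctrl and at least 0.302% in shArid3a.

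Megakaryocyte and platelet genes had mostly negative values with the hairpin, among them all adhesion receptors and most of the granule cargo. Of 37 genes on the list 33 were tested, 26 lower and 7 higher, with a median log2 fold change of −0.66 against −0.02 over all genes and −0.61 with the length trend removed. Treml2 was the 1 member called by edgeR. The replicate block added Thbs1 and Gp6, and DESeq2 called 10 of 30 members, all lower (33.3%, against 7.6% of all genes lower). Without miR-125b replicate 1, edgeR called 8 members, all lower (24.2%, against 2.48% of all genes). In 16 members the shArid3a libraries lay below all sh-ctrl libraries and in 3 above, against 22.2% and 21.6% of all genes. All 10 adhesion receptors had negative values, with a median of −0.65. Itgb3, the beta chain of the platelet fibrinogen receptor, stood at 391, 389.8 and 402 CPM in sh-ctrl and at 136 and 161 CPM in shArid3a, a difference of −1.41 (SE 0.29, edgeR adjusted p 0.0802). Its partner chain Itga2b stood at 1651, 1356 and 1531 CPM against 821 and 905 CPM, a difference of −0.81 (SE 0.23, edgeR adjusted p 0.0861). For both integrin chains the groups did not overlap. Gp6, the platelet collagen receptor, stood at 13.8, 16 and 19.4 CPM against 3.24 and 6.04 CPM, a difference of −1.84 (edgeR adjusted p 0.0802, and 0.0383 with the replicate block).

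Granule genes differed among themselves. Thbs1, which codes for the alpha granule protein thrombospondin-1, stood at 53.2, 57.9 and 38.6 CPM in sh-ctrl and at 2.66 and 6.49 CPM in shArid3a, a difference of −3.46 (SE 0.61, edgeR adjusted p 0.0745, and 0.0383 with the replicate block). Slc35d3, needed for platelet dense granules, stood at 76, 26.7 and 63 CPM against 13.4 and 6.22 CPM, a difference of −2.49 (edgeR adjusted p 0.0802). Vwf, von Willebrand factor, stood at 13.6, 11.5 and 17.3 CPM against 4.78 and 4.22 CPM, a difference of −1.65 (edgeR adjusted p 0.0821). In these 3 genes the hairpin libraries lay below all sh-ctrl libraries. By contrast Pf4, platelet factor 4, stood at 2207, 973 and 1142 CPM in sh-ctrl and at 1818 and 2004 CPM in shArid3a, where the groups overlapped (0.41, edgeR adjusted p 0.433). The members did not share 1 direction. Itga2b, Gp6, Vwf and Pf4 here, and Tgfb1 below, lie outside the rule for named genes and were picked with their values in view.

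Erythroid genes showed no common direction. Of 33 tested, 16 were higher and 17 lower, with a median of −0.01, and edgeR called 0 of them, with 5 higher and 4 lower at an unadjusted p under 0.05. DESeq2 called 3 higher and 3 lower (10% each, against 6.61% and 7.6% of all genes). The median kept its sign in 12 of 20 alternatives, was −0.01 with the length trend removed and −0.20 with scaling by library totals. All 6 tested globin genes had negative values, with a median of −0.28, which was −0.67 with the length trend removed. In 2 of the 6 the hairpin libraries lay below all sh-ctrl libraries, against 22.2% of all genes. Globin genes also come in near-identical copies, so reads could have been split between them. Alad, the second enzyme of heme synthesis, stood at 83.3, 99.3 and 90.4 CPM in sh-ctrl and at 129 and 147 CPM in shArid3a, a difference of 0.60 (edgeR adjusted p 0.0819). Slc25a37, the mitochondrial iron importer, stood at 91, 80.8 and 94.8 CPM against 58.2 and 41.9 CPM, a difference of −0.83 (edgeR adjusted p 0.0802). Car1, a carbonic anhydrase of red cells, was at 1.36, 0.586 and 1.27 CPM against 11.4 and 4.84 CPM (2.91, edgeR adjusted p 0.0885). In each of these 3 the groups did not overlap, and the directions differed.

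Transcription factors of blood cells had a median close to that of all genes. Of 29 tested, 20 were lower and 9 higher, with a median of −0.12, of −0.04 with the length trend removed and of −0.32 with library totals. EdgeR called 0, with 3 higher and 6 lower at an unadjusted p under 0.05. DESeq2 called 1 higher (3.57%, against 6.61% of all genes) and 4 lower (14.3%, against 7.6%). Runx1, a factor of stem cell and megakaryocyte development, stood at 152, 146 and 162 CPM in sh-ctrl and at 99.4 and 107 CPM in shArid3a. Its difference of −0.57 (edgeR adjusted p 0.0821) was −0.16 with the length trend removed. Gfi1b, a repressor of the erythroid and megakaryocytic lineages, stood at 89.5, 91.9 and 113 CPM against 139 and 149.7 CPM, a difference of 0.55 (edgeR adjusted p 0.0883) that was 0.35 without the trend. All 12 tested genes of the ARID family, to which the target belongs, had negative values, with a median of −0.61. Removing the length trend moved that median to −0.25, and Arid3a was the 1 member called by edgeR in both fits. DESeq2 called 6 of the 12, all lower (50%, against 7.6% of all genes lower), and edgeR without miR-125b replicate 1 called 4 (33.3%, against 2.48%). Arid1a, a subunit of the BAF chromatin remodeller, stood at 153, 159 and 186 CPM against 113 and 76.6 CPM, a difference of −0.81 (edgeR adjusted p 0.0802) that was −0.44 without the trend.

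The cytokine receptor list held 20 tested genes, 15 lower and 5 higher, with a median of −0.35, of −0.39 with the length trend removed and of −0.55 with library totals. Csf2rb was the 1 called, and DESeq2 called 3, all lower (15.8%, against 7.6% of all genes). All 4 tested genes of the beta common family had negative values, with a median of −1.05. Il6st, the gp130 chain of the IL-6 receptor family, stood at 12.2, 5.19 and 7.96 CPM in sh-ctrl and at 4.16 and 2.24 CPM in shArid3a (−1.39, edgeR adjusted p 0.102). Il2rg, the common gamma chain, stood at 32.4, 35.8 and 30.6 CPM against 54.7 and 48.6 CPM (0.65, edgeR adjusted p 0.137). In both the groups did not overlap, in opposite directions.

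Genes of other myeloid cells had medians near that of all genes. Of 24 myeloid genes 13 were tested, 9 lower and 4 higher with a median of −0.17 and of −0.27 with the length trend removed. The edgeR fit called 0, with 1 at an unadjusted p under 0.05, and DESeq2 called 1 of 10, Lyz2. Lyz2, lysozyme, stood at 8.47, 3.66 and 3.83 CPM in sh-ctrl and at 2.5 and 2.36 CPM in shArid3a (−1.12, edgeR adjusted p 0.152). The hairpin libraries lay below the sh-ctrl libraries, of which replicate 1 was the highest. Among 15 mast cell and basophil genes 7 were higher and 8 lower, with a median of −0.07 and of −0.21 with the length trend removed. EdgeR called 0, with 2 higher and 1 lower at an unadjusted p under 0.05, and DESeq2 called 1 of 9, Fcer1g. Fcer1g, the signalling chain of Fc receptors, stood at 209, 225 and 151 CPM against 289 and 398 CPM (0.82, edgeR adjusted p 0.0802), a difference that was 0.47 with the length trend removed. The median of this list kept its sign in 15 of 20 alternatives and ran from −0.94 without shArid3a replicate 3 to 0.49 without sh-ctrl replicate 3.

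Genes of the TGF-beta pathway, which signals through receptor kinases and SMAD proteins, had mostly negative values. Of 29 tested, 24 were lower and 5 higher, with a median of −0.40 and of −0.32 with the length trend removed. EdgeR called 0 of them, with 1 higher and 10 lower at an unadjusted p under 0.05, and DESeq2 called 10 lower (37%, against 7.6% of all genes) and 1 higher of 27. Without miR-125b replicate 1 edgeR called 4, all lower (13.8%, against 2.48%). The only ligand tested, Tgfb1, had a value of 0.06, and 5 of 6 receptors, 5 of 6 SMAD genes, 6 of 6 repressors and 8 of 10 targets had negative values. Smad5, which carries the BMP signal, stood at 34, 33.6 and 32.9 CPM in sh-ctrl and at 19.4 and 17.5 CPM in shArid3a, a difference of −0.86 (SE 0.17, edgeR adjusted p 0.0802). Smad7, the inhibitory SMAD, stood at 9.32, 9 and 9.97 CPM against 4.76 and 3.24 CPM, a difference of −1.23 (edgeR adjusted p 0.0821). Smad3, which carries the TGF-beta signal, stood at 44, 35.1 and 48.2 CPM against 30.9 and 16 CPM, a difference of −0.85 (edgeR adjusted p 0.0922). In these SMAD genes, chosen for their small p, the groups did not overlap, and 1 other SMAD gene lay above all sh-ctrl libraries. Ltbp1, which binds latent TGF-beta in the matrix, stood at 10.6, 5.92 and 6.4 CPM against 2.5 and 2.27 CPM, also with no overlap (−1.67, edgeR adjusted p 0.089).

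DNA replication genes had mostly positive values, with little change in their median when the length trend was removed. All 45 genes of the list were tested, 39 higher and 6 lower, with a median of 0.46 and of 0.43 without the trend. With scaling by library totals it was 0.27. Members of the list fell in several bins of level. Protein-coding genes in the highest bin, given above, had a median of 0.31, and 81.1% of them were higher. In the bin from 5.295 to 5.837 on the log2 CPM scale, which holds Gins2, the median was 0.02 and 52.3% were higher. The edgeR fit called 0, with 27 at an unadjusted p under 0.05, all higher (against 13.5% of all genes), and DESeq2 called 8, all higher (17.8%, against 6.61%). In 31 members the hairpin libraries lay above all sh-ctrl libraries, and in 0 below, against 21.6% and 22.2% of all genes. Helicase and origin genes (15 of 16 higher, median 0.48), polymerase and clamp genes (11 of 12, 0.43) and nucleotide supply genes (6 of 6, 0.55) had this direction, while 2 of 6 G1/S control genes did (median −0.06). Gins2, a subunit of the replicative helicase, stood at 40.1, 37.9 and 24.9 CPM in sh-ctrl and at 62.1 and 58.5 CPM in shArid3a, a difference of 0.82 (SE 0.21, edgeR adjusted p 0.0833). Rfc4, of the clamp loader, stood at 56, 57.4 and 46.9 CPM against 85.8 and 91.4 CPM (0.73, edgeR adjusted p 0.0821). Tk1, thymidine kinase, stood at 135, 128 and 119 CPM against 197 and 189 CPM (0.60, edgeR adjusted p 0.0842). In these 3 genes the groups did not overlap. Cdt1, the licensing factor whose promoter is shown above, stood at 111, 121 and 88.1 CPM against 185 and 158 CPM (0.69, edgeR adjusted p 0.0936).

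Mitotic genes had the same direction with a smaller median. All protein-coding genes had a median of 0.31 in the highest bin of level, which holds Ube2c and Cdk1, and of 0.19 in that of Aurka. Of 42 mitotic genes tested, 35 were higher and 7 lower, with a median of 0.31. It was 0.36 with the length trend removed and 0.12 with scaling by library totals. EdgeR called 0, with 17 higher and 3 lower at an unadjusted p under 0.05, and DESeq2 called 9 higher (21.4%, against 6.61% of all genes) and 1 lower. All 11 mitotic kinases and cyclins had positive values. Ube2c, the ubiquitin-conjugating enzyme of the anaphase-promoting complex, stood at 267, 232 and 219.6 CPM in sh-ctrl and at 376 and 406 CPM in shArid3a, a difference of 0.71 (SE 0.15, edgeR adjusted p 0.0802). Aurka, Aurora kinase A of the spindle poles, stood at 76.2, 99.6 and 83.5 CPM against 124 and 139 CPM (0.60, edgeR adjusted p 0.0819). Cdk1, the mitotic kinase, stood at 197, 178 and 157 CPM against 239 and 279.6 CPM (0.55, edgeR adjusted p 0.0842). In these 3 genes the hairpin libraries lay above all sh-ctrl libraries. Ccnd1, cyclin D1, which acts in G1 phase, had the opposite sign, at 6.78, 13.6 and 16.9 CPM against 2.72 and 2.48 CPM (−2.26, SE 0.40, edgeR adjusted p 0.0745).

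The promoters of both lists were searched for motifs of cell cycle genes. Of the 45 replication genes 36 matched the RefSeq promoter table, with 42 promoters, and TTTNGCGC, as in the Cdt1 window above, occurred in 11 of them (26.2%) against 2.45% of the 12345 promoters of tested genes. Of the 42 mitotic genes 36 matched, with 38 promoters, and TTTGAA, as in Ube2c, occurred in 29 (76.3%) against 12.3%. CCAAT occurred in 61.9% of the replication and 76.3% of the mitotic promoters against 38.1%. The AT-rich motif ATTAAA, also searched, occurred in 11.9% of the replication and 5.26% of the mitotic promoters against 7.78%. The search took list members whatever their fold change, so these shares describe the lists and not an effect of the hairpin. A match describes letters in the window and not a bound factor.

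Genes of the p53 list and of the BCL2 family had more negative than positive values. The p53 list held 26 genes, mostly targets, with 3 for p53 control. Of the 26, 22 were lower and 4 higher, with a median of −0.45 and of −0.44 with the length trend removed. The edgeR fit called 0, with 1 higher and 8 lower at an unadjusted p under 0.05, and DESeq2 called 3, all lower. Mdm4, an inhibitor of p53, stood at 206, 130.5 and 252 CPM in sh-ctrl and at 111 and 73.6 CPM in shArid3a (−1.09, edgeR adjusted p 0.0842), a difference that was −0.63 with the length trend removed. Trp53inp1, a p53-induced gene of cell death, stood at 36, 30.6 and 55 CPM against 13.5 and 11.8 CPM (−1.68, edgeR adjusted p 0.0913). In both the hairpin libraries lay below all sh-ctrl libraries. Among 19 BCL2 family and caspase genes 12 were lower and 7 higher, with a median of −0.24, of −0.17 without the trend and of −0.42 with library totals. EdgeR called 0, with 1 higher and 4 lower at an unadjusted p under 0.05. DESeq2 called 1 higher (5.26%, against 6.61% of all genes) and 3 lower (15.8%, against 7.6%). The death inducer Bcl2l11 (BIM) stood at 16.2, 17.9 and 24.4 CPM against 8.48 and 8.93 CPM (−1.17, edgeR adjusted p 0.0821). The survival gene Bcl2 stood at 92.7, 90.3 and 137 CPM against 51.2 and 49.6 CPM (−1.08, edgeR adjusted p 0.0802). An inducer and an inhibitor of cell death thus had values of the same sign, without overlap of the groups.

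Interferon-response genes had mostly negative values. Of 42 tested, 32 were lower and 10 higher, with a median of −0.43 and of −0.42 with the length trend removed. The edgeR fit called 0, with 1 higher and 15 lower at an unadjusted p under 0.05, and DESeq2 called 12 lower (32.4%, against 7.6% of all genes) and 1 higher of 37. Without miR-125b replicate 1 edgeR called 6, all lower (14.3%, against 2.48%). All 5 regulatory factors had negative values (median −0.81), as did 20 of 24 effectors (−0.57), while genes of antigen presentation were split 4 to 4. Irf9, of the complex that drives these genes, stood at 32.5, 35.3 and 35.5 CPM in sh-ctrl and at 18.5 and 20.8 CPM in shArid3a, a difference of −0.81 (edgeR adjusted p 0.0821). Nlrc5, which drives class I antigen genes, stood at 13.5, 9.91 and 12 CPM against 3.1 and 1.77 CPM, a difference of −2.27 (SE 0.40, edgeR adjusted p 0.0745). The antiviral gene Rsad2 stood at 4.15, 4.46 and 5.32 CPM against 1.44 and 0.354 CPM (−2.34, edgeR adjusted p 0.0802). In these 3 genes the hairpin libraries lay below all sh-ctrl libraries. The median of the list was −0.71 without shArid3a replicate 1 and −0.25 without replicate 3. The spaced pair of GAAA, as in the Rsad2 window above, occurred in 15 of the 41 promoters of the 34 matched members (36.6%) against 2.97% of promoters of tested genes. Members were searched whatever their fold change, so this share too describes the list and not an effect of the hairpin.

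Cytosolic ribosomal protein genes had values of 1 sign throughout. All 78 were tested and all 78 values were positive, from 0.12 to 0.94, with a median of 0.52. EdgeR called 0, with 55 at an unadjusted p under 0.05 (against 13.5% of all genes higher), and DESeq2 called 33, all higher (42.3%, against 6.61%). In 62 the hairpin libraries lay above all sh-ctrl libraries, against 21.6% of all genes. Rps28, of the small subunit, stood at 529, 422 and 398 CPM in sh-ctrl and at 734 and 917 CPM in shArid3a (0.88, edgeR adjusted p 0.0802), and Rpl39, of the large subunit, stood at 928, 758 and 729.7 CPM against 1335 and 1607 CPM (0.87, edgeR adjusted p 0.0802). Most of these genes have processed pseudogenes, so their counts could be split. They are short, and with the length trend removed the median was 0.37. With scaling by library totals it was 0.33. The highest bin of level, over all protein-coding genes, had a median of 0.31. The 13 protein-coding genes of the mitochondrial genome had a median of −0.12, with 9 lower and 4 higher, and −0.44 with the length trend removed. EdgeR called 0 of them, with 1 at an unadjusted p under 0.05, and DESeq2 called 1. All genes of the mitochondrial genome in the count table, not only these 13, took 2.53 to 4.54% of counts in sh-ctrl and 2.19 and 3.01% in shArid3a.

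Metabolic lists leaned to positive values. Of 19 cholesterol synthesis enzymes 15 were positive (median 0.31, and 0.35 with the length trend removed), and Ebp, a late enzyme of the pathway, stood at 73.2, 70 and 52.3 CPM in sh-ctrl and at 89.7 and 107 CPM in shArid3a (0.60, edgeR adjusted p 0.0883). Genes of control and uptake had 4 of 5 negative values. The median of the whole list, 0.24, was 0.06 with scaling by library totals. Of 22 genes of the ATF4 amino acid response 16 were positive and 6 negative, with a median of 0.29, of 0.18 with the length trend removed and of 0.10 with scaling by library totals. The enzymes of the ATF4 list had 9 of 9 positive values, while 2 of 4 transporters and 3 of 3 other members had negative values. Asns, asparagine synthetase, stood at 146, 233 and 216 CPM against 384 and 347 CPM (0.88, edgeR adjusted p 0.0821), with no overlap. EdgeR called 0 genes of both lists, with 7 higher and 3 lower cholesterol genes and 7 higher and 1 lower ATF4 genes at an unadjusted p under 0.05. DESeq2 called 1 and 3, all higher (4.17% and 14.3%, against 6.61% of all genes).

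For signalling and adhesion lists the length trend mattered. Insulin and IGF signalling genes had 17 of 19 negative values and a median of −0.48, which was −0.04 with the length trend removed. Irs2, an adaptor of the insulin receptor, stood at 12.2, 16 and 26.2 CPM in sh-ctrl and at 6.09 and 1.68 CPM in shArid3a (−2.21, edgeR adjusted p 0.0842), and −2.02 was left without the trend. Integrin and actin linkers had 17 of 28 negative values and a median of −0.37, and of −0.11 without the trend. Parvb, parvin beta, which links integrins to actin, stood at 119, 132 and 97.8 CPM against 47.8 and 60.4 CPM, a difference of −1.10 (edgeR adjusted p 0.0745) and of −1.04 without the trend. Vasp, which promotes actin filament growth, stood at 371, 320.1 and 275 CPM against 217 and 163 CPM (−0.76, edgeR adjusted p 0.0802). In these 3 genes the groups did not overlap. With scaling by library totals the insulin median was −0.66 and the integrin median −0.56. Of 14 S100 and annexin genes 12 were positive, with a median of 0.35, of 0.13 without the trend and of 0.16 with library totals. S100a6, a calcium-binding protein, stood at 0.508, 0.381 and 0.244 CPM against 3.81 and 2.27 CPM (3.03, edgeR adjusted p 0.0766, and 0.0338 with the replicate block). EdgeR called 0 genes of these 3 lists, with 1 higher and 10 lower insulin genes, 2 higher and 10 lower integrin genes and 6 higher S100 and annexin genes at an unadjusted p under 0.05. DESeq2 called 1 higher and 4 lower (5.26% and 21.1%), 1 higher and 6 lower (3.85% and 23.1%), and 4 higher (33.3%), respectively. The shares of all genes were 6.61% higher and 7.6% lower.

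**Figure D4:**
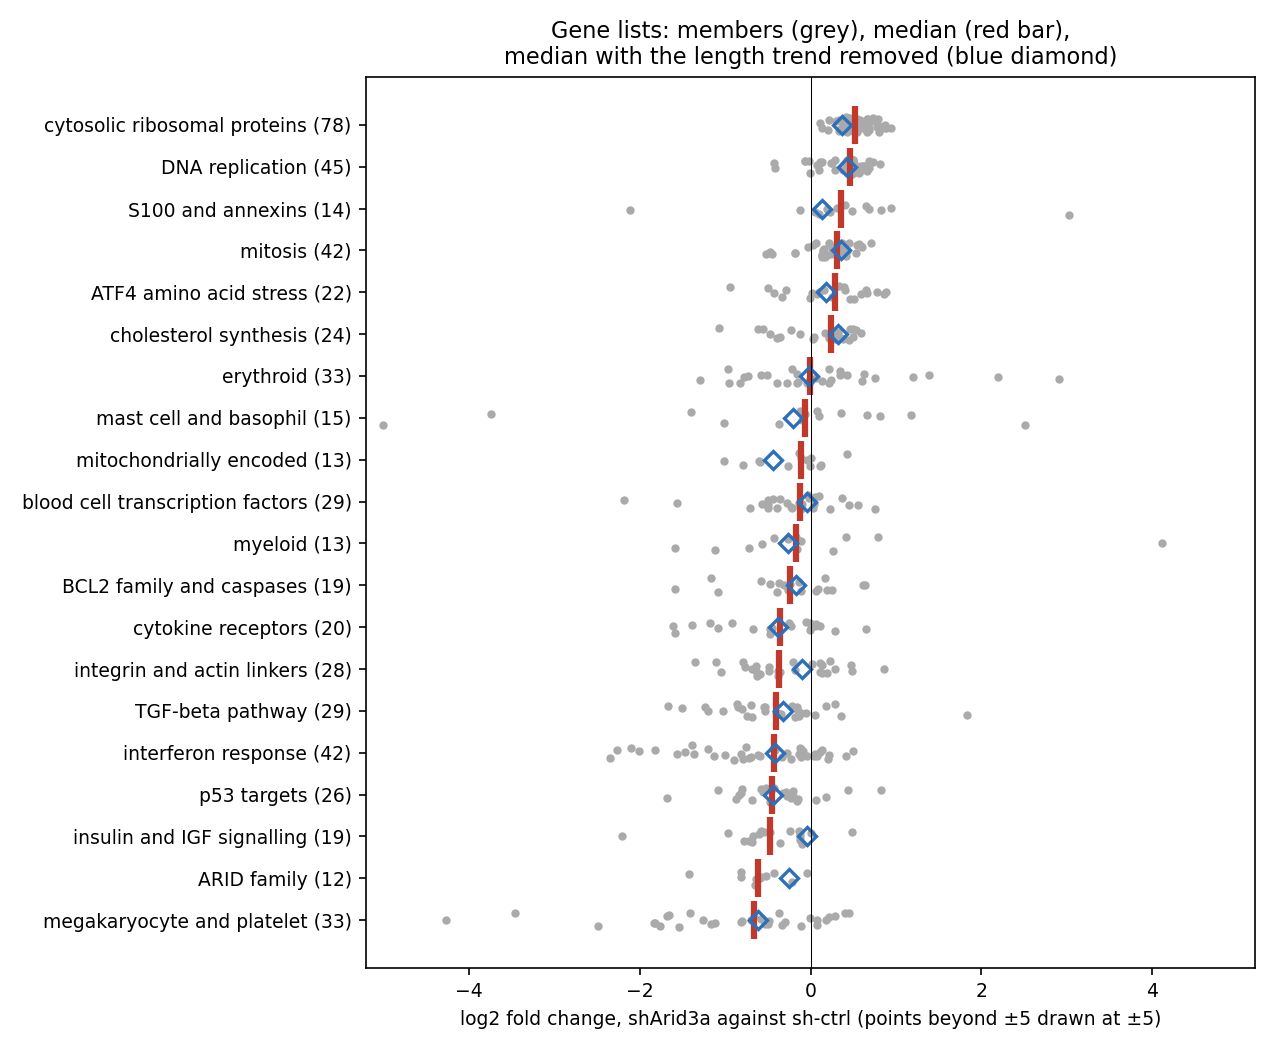
Log2 fold change of shArid3a against sh-ctrl for the tested members of each gene list, with the list median and the median after removal of the length trend. Medians run from −0.66 (megakaryocyte and platelet) to 0.52 (cytosolic ribosomal proteins) among lists other than the ribosomal RNA-like one. The median of insulin and IGF signalling moves from −0.48 to −0.04 when the trend is removed.

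Below the threshold, the ranking held further genes without overlap. Among protein-coding genes whose average log2 CPM reached 3, the next 12 higher by p-value had edgeR adjusted p-values from 0.0766 to 0.0802 and log2 differences of 0.69 to 1.24. Sarnp, an RNA export factor, stood at 31.2, 44.9 and 29.4 CPM in sh-ctrl and at 77.6 and 88.5 CPM in shArid3a (1.24, edgeR adjusted p 0.0766). Spcs1 and Spcs2, subunits of the signal peptidase of the endoplasmic reticulum, had differences of 1.03 and 0.74, and the centromere gene Cenpk 0.94. The next 12 lower had adjusted p-values from 0.0512 to 0.0745 and differences of −3.46 to −0.87. Cnot6, a deadenylase of messenger RNA, stood at 149.97, 136 and 156 CPM in sh-ctrl and at 86.7 and 71.9 CPM in shArid3a (−0.90, edgeR adjusted p 0.0512). Robo3, a receptor of the Roundabout family, stood at 65.6, 47.9 and 78.5 CPM against 13.3 and 11.9 CPM (−2.35, edgeR adjusted p 0.0745). Kdm4c, a histone demethylase, stood at 24.4, 16.3 and 22.4 CPM against 9.08 and 5.4 CPM (−1.53, and an edgeR adjusted p of 0.0383 with the replicate block). Each of these genes was chosen among those without overlap, so the separation is no finding.

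**Figure D5:**
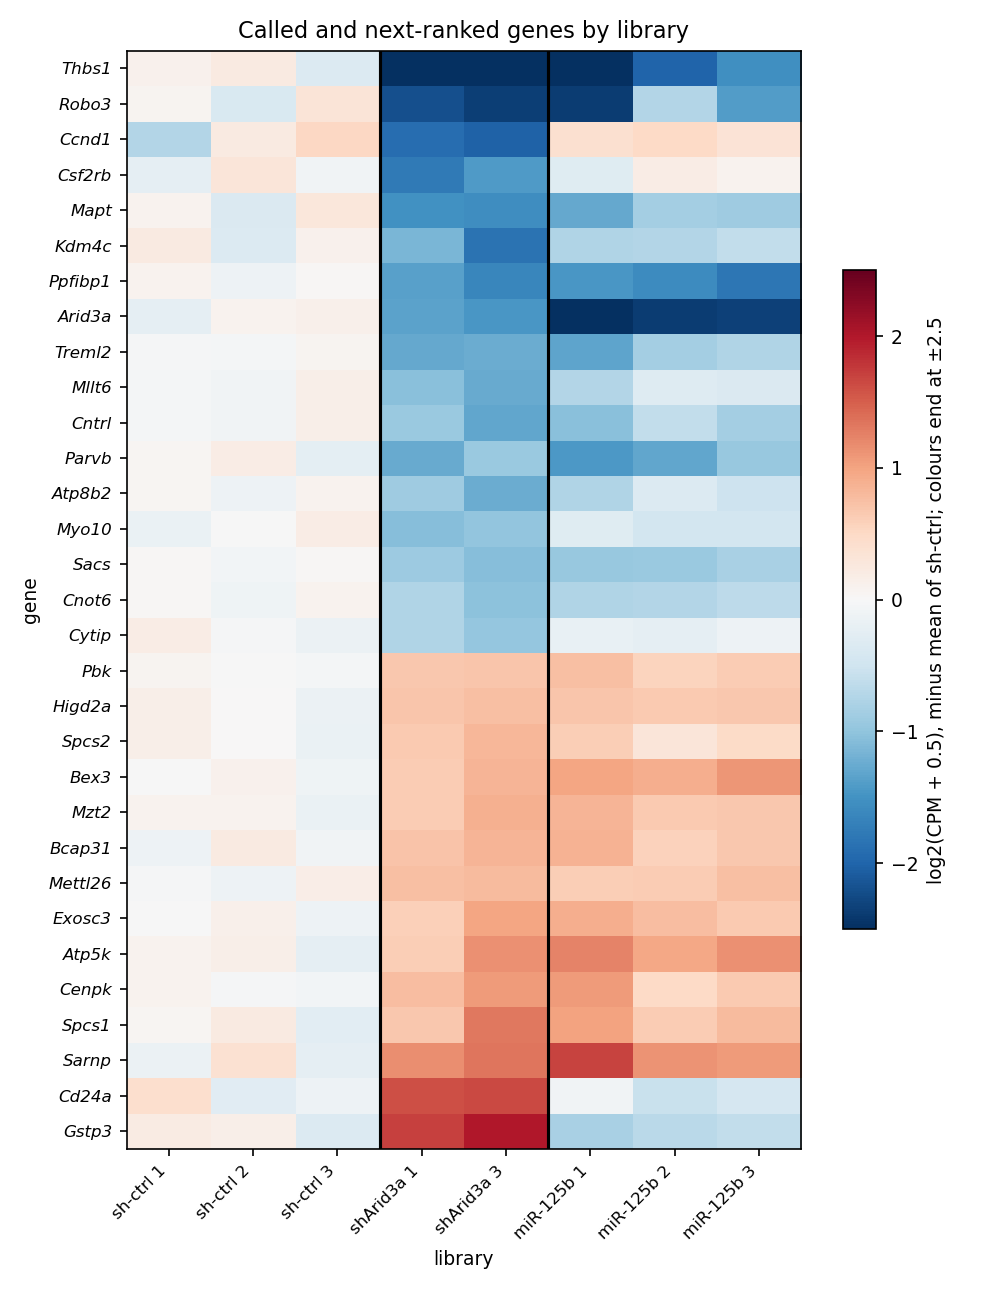
Level of each library relative to the sh-ctrl mean on the log2 scale, for called genes outside the ribosomal RNA-like list and for the next 12 genes in each direction. Rows are genes and columns the 8 libraries. Csf2rb, Ccnd1, Cd24a and Gstp3 differ between the shArid3a and miR-125b columns.

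The miR-125b libraries also had low Arid3a, at 7.14, 9.75 and 10 CPM. The direct contrast of miR-125b with shArid3a does not use the sh-ctrl levels. It does use the 2 shArid3a libraries whose values helped select the called and named genes. Genes chosen for extreme hairpin values are favoured to differ in it, so its calls on them are no independent check. Arid3a itself was lower with miR-125b by a log2 difference of −1.12 (SE 0.20, edgeR adjusted p 0.023). This contrast called 249 genes (1.78%), 132 higher with miR-125b (0.943%) and 117 lower (0.835%). Against sh-ctrl, miR-125b called 3835 genes (27.4%), a comparison that shares its control libraries with the hairpin's. Several list medians against sh-ctrl were alike, such as ribosomal proteins (0.52 with the hairpin, 0.55 with miR-125b), replication (0.46, 0.37) and the ARID family (−0.61, −0.73). Others differed, such as the myeloid (−0.17, 1.40), erythroid (−0.01, −0.65) and cholesterol synthesis (0.24, −0.28) lists. Besides Arid3a, 4 of the 13 genes called with the hairpin were called in the direct contrast. Csf2rb stood at 158, 222 and 206 CPM with miR-125b, a difference of 1.6 (SE 0.21, edgeR adjusted p 0.00608), and the sum with Csf2rb2 was 217, 306 and 296 CPM. Cd24a stood at 125.3, 90.2 and 99.996 CPM, a difference of −1.98 (SE 0.21, edgeR adjusted p 0.00152). For Csf2rb and Cd24a the miR-125b libraries overlapped the sh-ctrl libraries and lay apart from the hairpin libraries. Gstp3 was at 0, 0.0545 and 0.0758 CPM, and Gm26917 at 159, 127 and 115 CPM, both lower than with the hairpin (edgeR adjusted p 0.00115 and 0.0461).

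Other named genes were also called in the direct contrast. Ccnd1 stood at 15.5, 16.6 and 14.8 CPM with miR-125b (2.59, edgeR adjusted p 0.0113), S100a6 at 18.7, 13.6 and 12.2 CPM (2.27, 0.00832) and Lyz2 at 14.6, 10.5 and 16.9 CPM (2.52, 0.0174). Nlrc5 (2.21, 0.0234), Smad5 (0.90, 0.0302) and Ltbp1 (2.29, 0.0381) were higher with miR-125b than with the hairpin by edgeR as well. Ppfibp1, Treml2 and Mapt gave no call in this contrast. Their differences were −0.13, 0.31 and 0.56, with edgeR adjusted p-values of 0.799, 0.436 and 0.28, which does not show equal levels. The count of calls in this contrast fell to 22 without shArid3a replicate 1.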

How the data were processed

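The authors deposited a table of whole-number read counts per gene for the 8 libraries used here. Per the submitters' processing notes the tools were fastp, HISAT2 2.0.5 and featureCounts with the mm10 build, while the annotation, the use of strand and the library kit are not given in the sources used here. Symbols, positions and exon lengths came from GENCODE M21 (GRCm38) by Ensembl ID. The other tables of the series were not used here.

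Columns were mapped to samples by name. The quasi-likelihood test of edgeR 4.0.16 (R 4.3.3, limma 3.58.1) was run on the counts at default settings, with 1 term per group over sh-ctrl, shArid3a and miR-125b, TMM scaling, filterByExpr and Benjamini-Hochberg adjustment over 14004 genes, called under 0.05. Standard errors were derived from the F statistic and log2 fold change. A gene at 3 counts stands at 0.0733 to 0.0884 CPM, depending on the library. Scripts were tested on simulated data. Replicates differed by more than sampling noise.

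The replicate numbers were taken to pair the libraries, since the deviations from group means correlated at 0.151 to 0.431 in all same-numbered pairs of the fit. With 2 shArid3a libraries these deviations mirror each other, and shArid3a replicate 3 correlated at 0.364 with sh-ctrl replicate 2 and at 0.161 with sh-ctrl replicate 3. Likewise miR-125b replicate 2 correlated at 0.205 with sh-ctrl replicate 3 and at 0.151 with sh-ctrl replicate 2. Alternatives were other scalings and filters, DESeq2 1.42.0, robust and legacy edgeR fits, the replicate block, a fit of 2 groups alone, a fit without ribosomal RNA-like genes, leaving out each library and, chosen after seeing the data, removal of each library's trend with exon length. Named genes are Arid3a, Gata1, every called gene, the next 12 in each direction among protein-coding genes whose average log2 CPM reached 3 and whose groups did not overlap, and the 4 members of each list with the smallest p, of which examples are given. The members, lists and rules were chosen with earlier results of these data known, and lists carry no test.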

Additional observations from a re-analysis of the deposited data

How the results depend on the processing

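The 13 calls became 25 with scaling by library totals, 1600 with DESeq2, 31 with the replicate block, 7 without the ribosomal RNA-like genes, 7 with the length trend removed, 70 with the replicate block and the length trend removed together, and 21 with only the 2 groups compared. Leaving out 1 library at a time gave 2 to 517 calls, the lowest without sh-ctrl replicate 3 or shArid3a replicate 3 and the highest without miR-125b replicate 1. Leaving out a shArid3a library leaves 1 in that arm, which is then assumed to vary like the other groups. The direct contrast of miR-125b with shArid3a, with 249 calls, gave 737 with DESeq2, 386 with the replicate block, 509 with the block and the length trend removed, 164 with only the 2 groups compared, and 22 to 452 when 1 library was left out. The cause of these moves was not tested. Arid3a kept its direction in all 20 alternatives (log2 fold change −1.62 to −1.22) and its call in 15. With 1 library left out it ran from −1.55 to −1.37, and with the replicate block it was −1.36 (edgeR adjusted p 0.024). Gata1 was called in 0 of 20. Among the other named genes the direction reversed once, for mt-Atp6, from 0.43 to −0.19 with the replicate block and the length trend removed. List medians kept their sign in all alternatives except those of the erythroid (12 of 20), mast cell (15), myeloid (19) and insulin (19) lists. Depth limits genes near the floor of 3 counts, such as Gstp3, which was called in 9 of the 18 alternatives that gave it an adjusted p.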

Other observations

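The fit with the replicate block called 18 genes that the fit without it did not, and several belong to none of the lists above. They are given as values, since the block alone selected them. Cmah, the enzyme that makes the sialic acid Neu5Gc, stood at 22.8, 45.3 and 71.3 CPM in sh-ctrl and at 6.04 and 7.58 CPM in shArid3a. The sh-ctrl libraries themselves spread widely, all above the hairpin libraries, and the edgeR adjusted p was 0.0802 without and 0.013 with the block. Cd93, a receptor of immature blood and endothelial cells, stood at 7.26, 1.08 and 0.293 CPM against 0.435 and 0.0295 CPM, with adjusted p-values of 0.176 and 0.0191. Notch3, a Notch receptor, stood at 4.1, 14.1 and 26.6 CPM against 1.41 and 3.04 CPM (0.0936 and 0.0336), and Chd7, a chromatin remodeller, at 14.7, 8.47 and 5.5 CPM against 2.85 and 1.74 CPM (0.0802 and 0.0465). In Cd93 the groups overlapped. Atf5, a stress-response transcription factor, stood on the other side at 12.3, 17.8 and 15.6 CPM against 24.7 and 42.7 CPM (0.0819 and 0.0304). Besides S100a6, Atf5 is among the genes that the block called higher.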
